A study of Mus musculus with 5 samples.

Results

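The genes described here encode the nuclear subunits of the respiratory chain and of ATP synthase, grouped by the complex they belong to. They were taken by symbol from the gene list of the 5 libraries: every symbol that begins with Nduf (without the Ndufaf assembly factors), Uqcr, Cox4i, Cox5, Cox6, Cox7, Cox8 or Atp5, together with Sdha, Sdhb, Sdhc, Sdhd and Cyc1, and without pseudogenes. This rule, which used no measured value, found 87 of 32285 genes. Complex I held 37 of them, complex II 4, complex III 9, complex IV 20 and complex V 17, with Ndufa4 and Ndufa4l2 counted in complex IV.

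Electrons from NADH enter the chain at complex I (NADH dehydrogenase) and electrons from succinate at complex II (succinate dehydrogenase), which is also an enzyme of the tricarboxylic acid cycle. Complex III (cytochrome bc1) and complex IV (cytochrome c oxidase) pass them on to oxygen, and complex V (ATP synthase) uses the resulting proton gradient to make ATP. Some subunits of every complex but complex II are encoded in mitochondrial DNA. Tubular cells of the kidney, above all those of the proximal tubule, the thick ascending limb and the distal convoluted tubule, are rich in mitochondria because they reabsorb salt and solutes, whereas resting lymphocytes hold few.

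The cells came from kidneys of male wild-type C57BL/6 mice, 8 to 10 weeks old, and were counted in droplets. Aristolochic acid I, a plant toxin taken up by proximal tubule cells, had been injected intraperitoneally at 3 mg/kg every 3 days over 2 weeks. The 2 AKI libraries came from week 2, at the end of the injections, and the 2 CKD libraries from week 4, after a further period without the toxin. The 1 control library was taken at baseline per the study's results, while its methods give control mice vehicle on the same injection schedule. Nothing in the labels says whether the libraries of 1 group came from separate mice, so p-values measure only the spread between libraries.

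After filtering, 53620 cells were kept, 8398 in control, 10199 and 9910 in AKI and 16330 and 8783 in CKD, with 54988497 to 79370188 UMIs (unique molecules) per library. Classes were named from marker genes, so that "PT" stands for proximal tubule-like cells, and 44974 cells carried a name. The other classes are written TAL (thick ascending limb), DCT (distal convoluted tubule), CNT (connecting tubule), PC and IC (principal and intercalated cells), thin limb, EC (endothelial cells) and by name. No member was among the genes used for clustering. Some libraries stood apart. In the control library the median mitochondrial share of a cell's UMIs was 10.6%, against 3.38% to 7.41% in the others. The CKD 1 library was the shallowest per cell, with a median of 2894 UMIs against 3578 to 5652. In CKD 1, 1006 of the PT cells fell in a cluster led by Mettl7b and Spink1 that held 49 to 63 cells of each other library. Libraries shared 19 to 132 cell barcodes per pair, and 99 control cells whose barcodes were over 20 times deeper in CKD 2 were left out. Free RNA was not removed from the deposited counts. It was followed by the summed level of the proximal tubule transcripts Slc34a1, Lrp2, Kap, Gpx3, Miox and Slc27a2, which was 227 to 327 UMIs per 10000 in PT and 2.35 to 15.7 in T lymphocytes.

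Levels are given as UMIs of a gene, or of a complex summed over its genes, per 10000 UMIs of a class in 1 library. Because the libraries count 3′ ends, levels are compared between classes and libraries and not between genes. Throughout, the 5 values of a gene stand in the order control, AKI 1, AKI 2, CKD 1 and CKD 2. Many of these short subunit genes have processed pseudogenes, and reads that fit several copies may be lost, so absolute levels are uncertain.

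Summed over all members, DCT, IC and PT had the highest means over libraries among the tubular classes, although CNT lay above IC and PT in CKD 2, and T lymphocytes held less than a tubular class in every library. In PT the members took 654, 511, 456, 568 and 490 UMIs per 10000. In DCT they took 850, 537, 454, 697 and 621. In IC they took 692, 521, 482, 642 and 575. These 3 classes overlapped, since DCT was above PT in the control library and below it in AKI 2. CNT followed with 533, 459, 410, 460 and 602, TAL with 580, 478, 383, 534 and 424, and PC with 502, 424, 382, 440 and 423. Thin limb cells were the lowest tubular class, with 359, 347, 388, 371 and 343, a narrow range over the libraries.

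Among lymphocytes, T cells took 210, 191, 187, 238 and 211 UMIs per 10000 for the members. Cycling T cells, marked by Mki67 and Top2a, lay above them in every library with 272, 296, 280, 307 and 297. Macrophages took 161, 179, 187, 273 and 227, so that their CKD values lay above those of the other libraries. The means over the libraries were 224 in Treg cells, 214 in CD8 T cells, 202 in CD4 T cells, 185 in NK cells, 170 in EC, 157 in B cells and 135 in neutrophils. Neighbours in this order mostly traded places between libraries: DCT was above IC in 4 of 5 libraries, and macrophages were above CD4 T cells in 3 of 5. TAL was above PC, and thin limb above cycling T cells, in all 5.

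**Figure D1:**
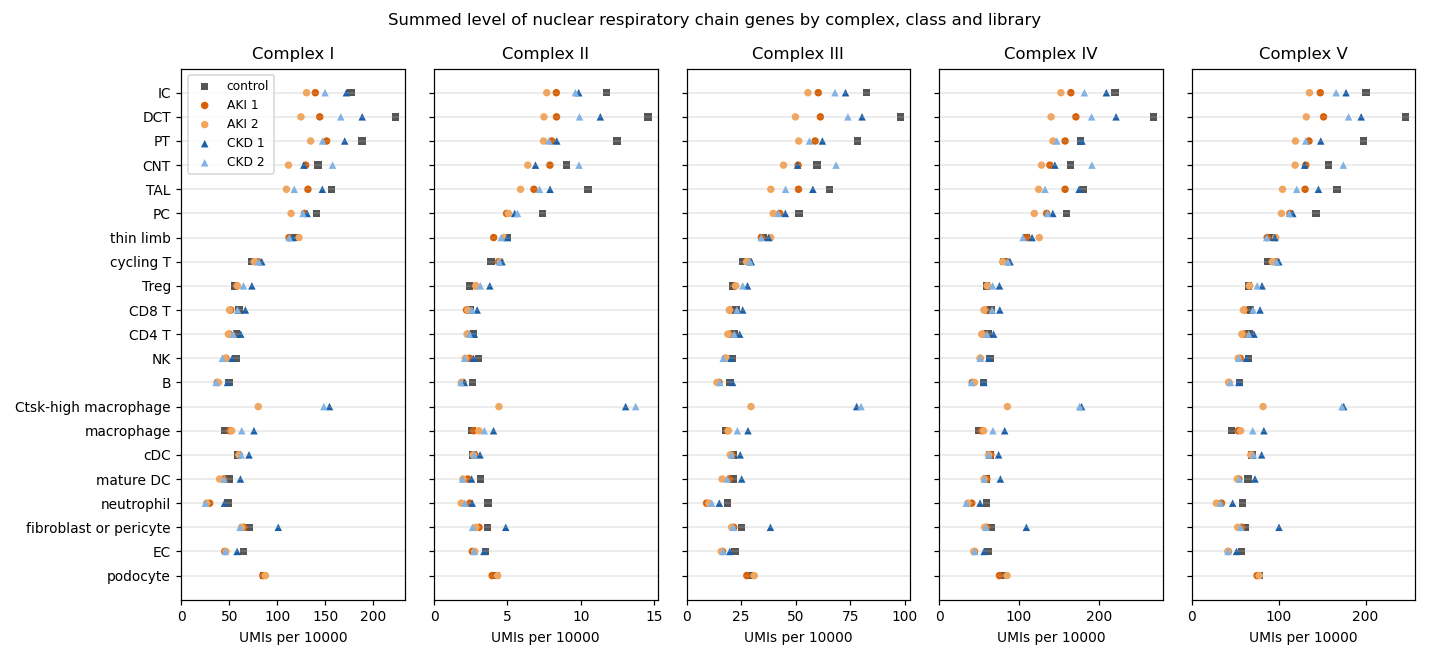
Summed level of the members of each complex (UMIs per 10000, linear axes that start at 0 and differ between panels) for each cell class (rows) and library (1 point each, for points with at least 20 cells). The control point of DCT lies furthest right in every panel, cycling T cells lie to the right of the other lymphocytes, and in complex II the CKD points of Ctsk-high macrophages lie to the right of every PT point.

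The complexes did not scale alike between classes. Relative to T lymphocytes of the same library, complex II was the furthest apart in PT, with a ratio of 3.52 ± 0.82 (SD over 5 libraries), and complex V the least, with 2.23 ± 0.44. Complexes I, III and IV lay between them with 2.84 ± 0.28, 2.83 ± 0.46 and 2.62 ± 0.20. The same ends of the order were seen in DCT (complex II 4.10 ± 0.99, complex V 2.74 ± 0.58), in IC (3.76 ± 0.55 and 2.52 ± 0.30) and in TAL (3.05 ± 0.64 and 2.04 ± 0.32). All these ratios share the T lymphocyte values. In PC complex I (2.30 ± 0.18) and complex II (2.28 ± 0.39) had the highest ratios, and complex V again the lowest (1.80 ± 0.24).

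As shares of all member UMIs, complex V made up 31.7% ± 0.31 in T lymphocytes and 27.2% ± 1.73 in PT. Complex I made up 27.0% ± 0.28 in T lymphocytes and 29.6% ± 0.50 in PT. The succinate dehydrogenase genes of complex II made up 1.21% ± 0.02 in T lymphocytes and 1.64% ± 0.16 in PT. In thin limb cells complex I made up 32.2% ± 0.73, complex II 1.30% ± 0.09 and complex V 25.3% ± 0.36. In the PT of the control library alone, complex V reached 30.2%, against 26.1% as the lowest PT value.

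Promoter sequences are shown for 2 pairs of genes that encode the same subunit but differed in where they were found: Cox6b1 and Cox6b2 (subunit 6b of complex IV), and Atp5g1 and Atp5g2 (subunit c of complex V). Each is the RefSeq sequence in the build GRCm38.p6, from 250 bases before to 50 bases after the transcription start, on the gene's strand. Cox6b1 lies at chr7:30626065-30626364, Cox6b2 at chr7:4753045-4753344, Atp5g1 at chr11:96075582-96075881 and Atp5g2 at chr15:102670998-102671297, all on the minus strand. Capitals mark the motifs found on either strand among CCGGAAG (ETS factors), CCAAT, ATGGCGGC (YY1), AAGGTCA (ESRR), CACGTG (E-box) and the NRF1 palindrome, whose core was also searched with 1 base left free.
Cox6b1: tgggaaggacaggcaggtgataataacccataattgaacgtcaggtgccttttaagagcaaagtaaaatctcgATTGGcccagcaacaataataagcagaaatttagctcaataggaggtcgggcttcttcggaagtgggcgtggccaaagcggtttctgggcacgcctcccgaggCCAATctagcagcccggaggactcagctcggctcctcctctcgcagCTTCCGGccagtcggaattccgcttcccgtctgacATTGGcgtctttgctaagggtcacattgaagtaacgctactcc
Cox6b2: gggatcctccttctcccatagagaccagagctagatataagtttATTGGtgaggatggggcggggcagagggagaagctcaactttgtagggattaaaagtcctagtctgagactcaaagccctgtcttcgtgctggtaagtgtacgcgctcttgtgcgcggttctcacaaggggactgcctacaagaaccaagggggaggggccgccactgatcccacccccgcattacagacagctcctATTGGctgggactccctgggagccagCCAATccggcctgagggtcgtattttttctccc
Atp5g1: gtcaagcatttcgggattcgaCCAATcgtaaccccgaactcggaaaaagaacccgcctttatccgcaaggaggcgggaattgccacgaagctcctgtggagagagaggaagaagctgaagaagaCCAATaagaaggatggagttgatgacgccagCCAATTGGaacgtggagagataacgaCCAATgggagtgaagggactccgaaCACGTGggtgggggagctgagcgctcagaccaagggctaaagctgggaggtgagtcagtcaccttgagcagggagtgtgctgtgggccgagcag
Atp5g2: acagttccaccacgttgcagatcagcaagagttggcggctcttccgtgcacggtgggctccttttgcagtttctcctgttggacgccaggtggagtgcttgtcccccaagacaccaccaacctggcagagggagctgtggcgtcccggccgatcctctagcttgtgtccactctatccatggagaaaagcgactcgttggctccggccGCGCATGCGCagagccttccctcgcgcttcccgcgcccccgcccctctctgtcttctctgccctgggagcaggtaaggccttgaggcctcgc
Cox6b1 held an ETS motif whose first base lay at -28 from the start, which Cox6b2 did not hold in this window, and both held 3 CCAAT boxes. Atp5g2 held the palindromic NRF1 motif at -42, where Atp5g1 had an E-box at -44 and 5 CCAAT boxes further upstream. Of the 87 members, 68 matched the promoter table with 73 promoters. The NRF1 core with that free base was found in 24.7% of these, against 4.603% of all 32851 promoters of the same length. The ETS motif stood in 23.3% against 8.86%, the YY1 motif in 9.59% against 2.24%, and the CCAAT box in 42.5% against 37.4%. All 7 member promoters with the YY1 motif belonged to complex I. Cox4i1, Cox4i2, Cox6a2 and Ndufa4l2 were among the members with no promoter in the table.

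Which of these genes separate tubular cells from T lymphocytes was tested gene by gene, on UMIs summed per library and class, with the library as a block (edgeR quasi-likelihood test, Benjamini-Hochberg adjustment over all genes tested). In PT against T lymphocytes, 76 of 82 tested members were higher and 2 lower, where 38.2% of all genes were higher and 38.6% lower. The members' median log2 difference was 1.10, against -0.02 over all genes. These differences are scaled by TMM (edgeR's correction for composition). On levels per 10000 the log2 differences of PT to T lymphocytes were 0.40 larger, and those of the other tubular classes to T lymphocytes 0.51 to 0.72 larger. The 5 members left out of the test had too few UMIs to enter it.

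In complex I, 36 of 37 members were higher in PT and none lower. Ndufc1, an accessory subunit of the membrane arm, was at 10.996, 6.25, 4.91, 7.05 and 6.02 in PT and at 1.74, 1.07, 0.9501, 1.55 and 1.04 in T lymphocytes (log2 difference 2.06, SE 0.12, adjusted p = 6.3e-06). Ndufb4, also a subunit of the membrane arm, was at 7.80, 6.17, 5.20, 6.31 and 5.90 in PT against 1.39, 1.16, 1.07, 1.36 and 1.04 (log2 difference 1.98, SE 0.11, adjusted p = 6.0e-06). Both were highest in the control PT and did not overlap between the classes. Ndufb6 differed by 1.92 on the log2 scale, and Ndufs1, the largest iron-sulfur subunit of the core, by 1.396.

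All 4 genes of complex II were higher in PT. The membrane anchor Sdhc was at 2.94, 1.92, 1.82, 1.76 and 1.80 in PT and at 0.499, 0.338, 0.331, 0.390 and 0.324 in T lymphocytes (log2 difference 2.04, SE 0.11, adjusted p = 4.9e-06). The other anchor, Sdhd, differed by 1.46 and the flavoprotein Sdha by 1.34. Sdhb, the iron-sulfur subunit, had the smallest difference of the complex, at 4.24, 2.44, 2.05, 2.90 and 2.42 in PT against 0.704, 0.945, 0.978, 1.26 and 1.09 (log2 difference 1.06, SE 0.23, adjusted p = 0.0035). Its control library stood furthest apart in both classes, in opposite directions.

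In complex III, 8 of 9 genes were higher in PT. Uqcr11, a small subunit, was at 11.5, 10.2, 8.20, 9.56 and 9.24 in PT and at 2.59, 1.56, 1.37, 2.13 and 1.53 in T lymphocytes (log2 difference 2.04, SE 0.14). Cyc1, which encodes cytochrome c1, differed by 1.69, Uqcr10 by 1.67 and the Rieske iron-sulfur protein gene Uqcrfs1 by 0.79. Uqcrh, the hinge protein next to cytochrome c1, was the exception, at 11.1, 9.32, 8.08, 10.4 and 8.82 in PT against 6.82, 7.74, 7.82, 8.76 and 8.97 (log2 difference -0.15, adjusted p = 0.387). Its levels per 10000 were higher in PT in 4 of 5 libraries, so its direction depends on the scaling.

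In complex IV, 14 of 15 tested genes were higher in PT and 1 was lower. The housekeeping forms were higher too: Cox4i1 differed by 0.71, Cox5a by 1.09, Cox8a by 0.69, and Cox6b1 was at 13.2, 11.2, 9.97, 12.1 and 10.4 against 4.24, 3.53, 3.42, 4.91 and 4.20. The forms known from other tissues differed most, at low levels. Cox6b2, the form known from testis, was at 0.182, 0.653, 0.360, 1.82 and 1.59 in PT and at 0.0180 to 0.0800 in T lymphocytes (log2 difference 4.09, SE 0.28, adjusted p = 9.5e-06). Cox7a1, the form of heart and skeletal muscle, was at 0.902, 0.318, 0.215, 0.378 and 0.314 against 0.0247 to 0.126 (log2 difference 2.77, SE 0.14, adjusted p = 4.6e-06). Cox6a2, likewise a muscle form, reached 0.134 in control PT and at most 0.0382 in PT of the other libraries (log2 difference to T lymphocytes 2.40, SE 0.41, adjusted p = 0.00094).

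Cox7a2l ran the other way. It was at 2.11, 1.78, 1.79, 2.01 and 1.58 in PT and at 3.36, 4.18, 4.73, 4.29 and 5.11 in T lymphocytes (log2 difference -1.62, SE 0.18, adjusted p = 7.9e-05). Its relative Cox7a2, a structural subunit, was at 12.8, 11.5, 9.86, 13.96 and 11.8 in PT against 3.75, 3.02, 2.80, 4.30 and 3.28 (log2 difference 1.42). Cox7a2l was lower than in T lymphocytes in all 5 libraries on levels per 10000 in PT, TAL, DCT, CNT, PC and IC, with log2 differences of -0.97, -1.21, -1.24, -1.02 and -0.92 in the last 5.

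In complex V, 14 of 17 genes were higher in PT and 1 lower. The genes Atp5g1, Atp5g2 and Atp5g3 encode the same mature c subunit, which forms the rotor ring, and they split. Atp5g1 was at 14.3, 9.79, 7.97, 12.03 and 9.58 in PT and at 2.72, 2.07, 2.07, 3.17 and 2.25 in T lymphocytes (log2 difference 1.72, SE 0.13, adjusted p = 1.4e-05), and Atp5g3 differed by 1.32. Atp5g2 was at 4.39, 4.33, 3.77, 4.99 and 3.81 in PT and at 3.77, 4.46, 4.81, 5.54 and 5.39 in T lymphocytes (log2 difference -0.56, SE 0.15, adjusted p = 0.0086). The catalytic pair Atp5a1 and Atp5b differed by 1.17 and 1.03. Atp5e, the epsilon subunit, did not pass the test (0.27, adjusted p = 0.137). Atpif1, the inhibitor of ATP synthase, is no member by the rule, and its level pooled over libraries was highest in PT, at 10.5, with thin limb next at 8.91.

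The other segments gave the following counts, all against the same T lymphocyte sums. In DCT 73 of 81 members were higher and 1 lower (33.2% and 36.4% of all genes), in IC 72 and 2 (37.1% and 38.9%), in TAL 65 and 1 (37.7% and 37.3%), in CNT 64 and 2 (32.5% and 35.5%) and in PC 56 and 4 (35% and 37.5%). Uqcr11 led in DCT, at 17.7, 10.7, 7.70, 13.2 and 12.7 (log2 difference 2.24, SE 0.16, adjusted p = 1.3e-05). In PC the accessory complex I gene Ndufa5 was furthest apart in its complex, at 7.31, 5.71, 5.25, 5.64 and 6.20 (log2 difference 1.67). Complex V had the lowest median in each of TAL (0.42), DCT (0.81), IC (0.63) and PC (0.17), and complex II the highest in TAL (1.22), DCT (1.62), IC (1.54) and PC (0.74). Atp5g2 passed the test as lower in CNT (-0.40), IC (-0.35) and PC (-0.42), but on levels per 10000 it was higher than in T lymphocytes in 5, 5 and 4 of 5 libraries. The same held for Ndufv3 (-0.27) and Uqcrh (-0.40) in PC, which were higher on levels per 10000 in 5 and 4 of 5 libraries.

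Thin limb cells differed from the other tubular classes: 35 of 82 members were higher than in T lymphocytes and 17 lower, against 36.5% and 36.8% of all genes. The members' median was 0.20 after TMM and 0.91 on levels per 10000. Ndufb8, an accessory subunit of complex I, was at 17.8, 11.7, 13.6, 11.9 and 15.03 in thin limb and at 1.46, 1.56, 1.55, 2.29 and 1.64 in T lymphocytes (log2 difference 2.33, SE 0.17, adjusted p = 1.1e-05). Uqcrh was at 6.51, 5.92, 7.14, 7.10 and 5.68, lower than in T lymphocytes in every library (log2 difference -1.02, SE 0.13). Complex V had 2 genes higher and 9 lower after TMM. For Atp5h, one of the 9, the levels per 10000 were higher in thin limb in 3 of 5 libraries, so this direction turns with the scaling.

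**Figure D2:**
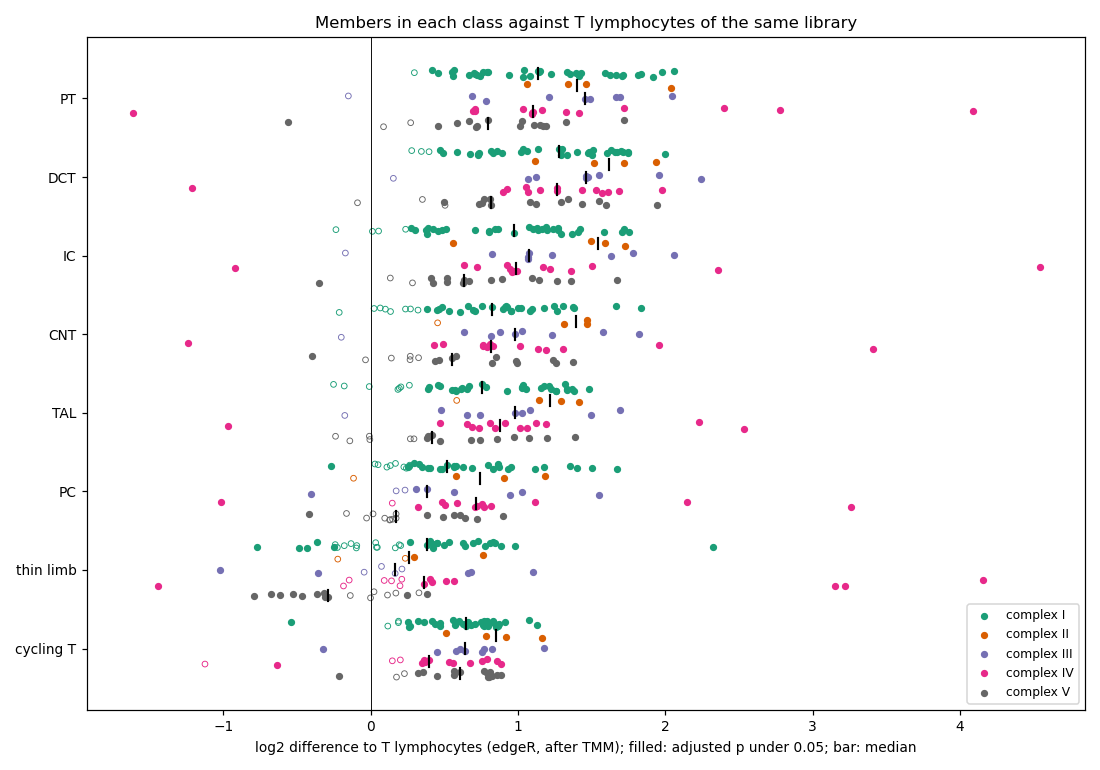
Log2 difference of each tested member between a class and the T lymphocytes of the same libraries (edgeR, after TMM), with 1 point per gene, coloured by complex, filled where the adjusted p was under 0.05, and a bar at the median of each complex. Most points of PT, DCT and IC lie right of 0, the complex V bars lie left of the complex I bars in every tubular class, and the lone point near -1.62 in PT is Cox7a2l.

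Other genes of the same machinery were followed as lists. All 13 mitochondrially encoded subunits were higher in PT than in T lymphocytes (median log2 difference 1.56), as were 12 in each of TAL, DCT and IC, where in IC mt-Nd6 was lower. In PC 1 was higher and 2 were lower, and in thin limb 9 were lower. Of the tricarboxylic acid cycle genes, 10 of 13 were higher in PT, 11 in TAL and DCT, 12 in IC and 8 in PC, and none was lower in these classes. The assembly factors were mixed, with 25 higher and 8 lower of 44 tested in PT. Of 12 tested regulators of mitochondrial biogenesis in PT, 5 were higher (Ppargc1a, Esrra, Esrrg, Polrmt and Tfb2m) and 4 lower (Nrf1, Gabpa, Tfam and Yy1). Of the carriers, 5 of 8 were higher in PT and Ucp2 was lower.

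Comparisons between segments were added after the levels had been seen, all against PT sums and with the same test. DCT was close to PT, with 5 of 82 members higher and 7 lower, against 18.7% and 21.1% of all genes, and a median of 0.09. Among those higher in DCT were Cox7b (0.55), Atp5a1 (0.42), Atp5b (0.40) and Atp5g2 (0.46). In IC 7 members were higher and 32 lower (27.6% and 28.9% of all genes), and the median was -0.14 after TMM but 0.10 on levels per 10000. In TAL 1 member was higher and 46 lower (23.8% and 23.9% of all genes, median -0.40), and in PC 2 and 68 (27.5% and 29.5%, median -0.61). The 68 genes lower in PC comprised 29 of complex I, 4 of complex II, 9 of complex III, 11 of complex IV and 15 of complex V. Without single libraries the calls in both directions were 4 (AKI 1), 7 (AKI 2), 5 (CKD 1) and 7 (CKD 2) in DCT, and 22 (AKI 1) and 24 (CKD 2) in IC.

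Ndufv3, a flavoprotein subunit of complex I, was the member of its complex furthest below PT in TAL, at 2.59, 2.36, 1.70, 2.54 and 2.05 against 5.98, 3.75, 3.08, 3.87 and 3.67 in PT (log2 difference -1.02, SE 0.13). Ndufb4 was lower in IC, at 4.19, 3.40, 3.15, 4.15 and 3.58 (-1.001, SE 0.09). Sdhb was lower in PC, at 1.74, 1.15, 1.26, 1.51 and 1.31 (-1.24, SE 0.13). In all 3 cases the highest library of the segment lay below the lowest library of PT. Cox7a2l, low in PT, was higher in TAL (2.55, 3.50, 3.85, 3.03 and 3.22, log2 difference 0.61), in PC (0.56) and in IC (0.70).

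The gene that most set intercalated cells apart was Cox7a1. In IC it was at 2.48, 1.21, 0.822, 1.81 and 1.69, against 0.215 to 0.902 in PT (log2 difference to PT 1.76, SE 0.14, adjusted p = 1.5e-05). Pooled over libraries it was highest in type A intercalated cells, at 1.99, followed by pendrin-positive intercalated cells at 1.89. In both IC and PC, where it was at 1.56, 0.525, 0.367, 0.429 and 0.668, the control library was highest. Cox7a1 lies on chromosome 7 at 29883569 to 29885503 of GRCm39, on the plus strand.

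Several isoform genes had their highest levels in small single classes, which is given here as a description. Cox4i2, the form of subunit 4 known from lung and smooth muscle, was at 1.22, 1.10, 1.55, 0.707 and 1.09 in the Rgs5-led cluster of the fibroblast or pericyte class and at 0.729, 0.257, 0.166, 0.186 and 0.216 in its Col1a1-led cluster. The Rgs5-led cluster had 13, 19, 18, 50 and 4 cells, so single libraries rest on few cells. Ndufa4l2, the hypoxia-inducible relative of Ndufa4, was at 3.00, 1.90, 3.77, 1.92 and 2.25 in the Rgs5-led cluster. Outside these 2 clusters its pooled level was at most 0.0183, in mature dendritic cells, where 4 UMIs were counted.

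Cox6a2 was highest in plasmacytoid dendritic cells, at 12.5, 11.6, 8.20, 12.1 and 10.1. These were 18, 16, 7, 15 and 25 cells with 145, 167, 50, 79 and 229 UMIs of the gene, of 1040 in all named cells. The next class was PT with a pooled level of 0.0484, against 10.9 in plasmacytoid dendritic cells. Cox6b2 had pooled levels of 1.21 in the Col1a1-led cluster, 1.10 in thin limb cells and 0.995 in PT, but its order changed between libraries. In thin limb cells it was at 0.111, 1.498, 1.39, 1.27 and 0.938, above PT in both AKI libraries and below PT in control and in both CKD libraries. Cox7b2, Cox8b and Cox8c, known from testis or muscle, had 2, 10 and 3 UMIs in all named cells.

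**Figure D3:**
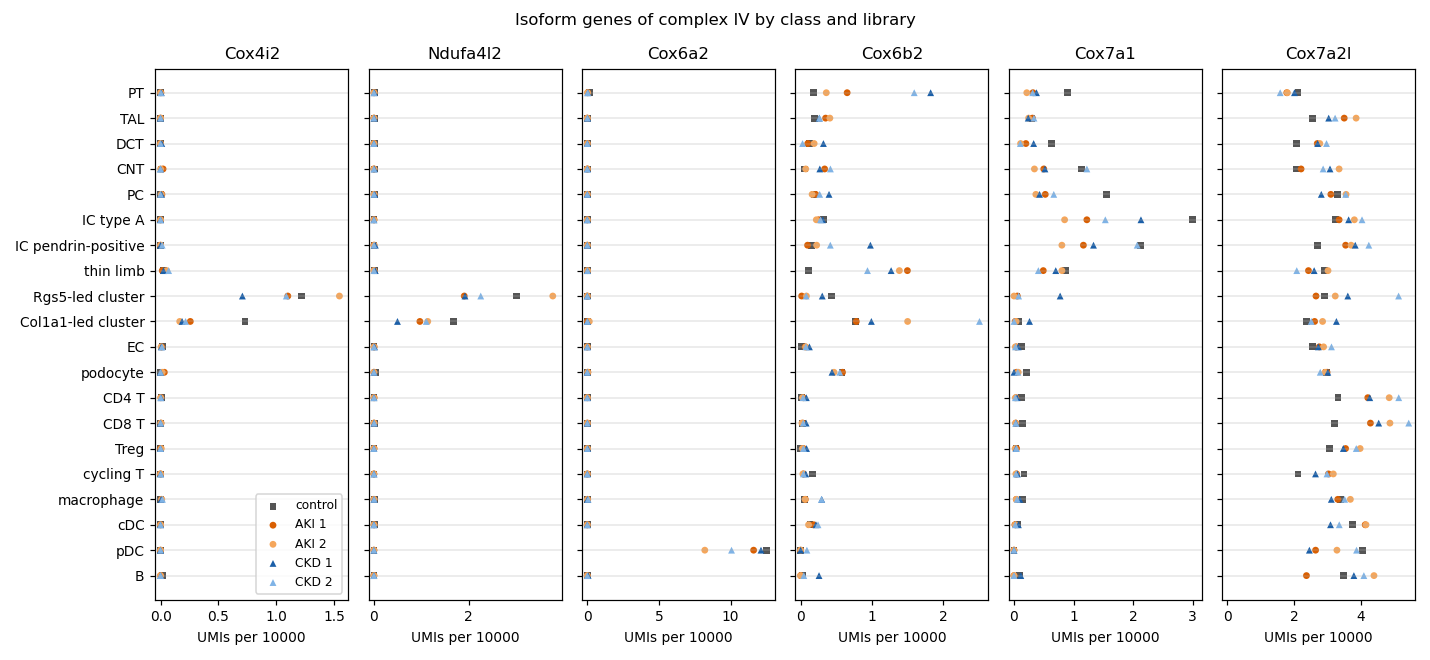
Level (UMIs per 10000, linear axes that differ between panels) of 6 isoform genes of complex IV by cell class (rows) and library (points, 5 per class unless a class had no cells). Cox4i2 and Ndufa4l2 stand out in the Rgs5-led and Col1a1-led clusters, Cox6a2 in plasmacytoid dendritic cells (pDC, 8.20 to 12.5), Cox7a1 in both kinds of intercalated cell, and Cox7a2l lies between 1.58 and 2.11 in PT.

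Within T lymphocytes, cycling cells carried more of nearly every member. Against the other T lymphocytes of the same library, 70 of 82 members were higher and 4 lower, where 30.2% of all genes were higher and 32.5% lower, and the median was 0.62. Complex II had the highest median (0.85, 4 of 4 higher), and complexes I, III and V had 33, 8 and 14 genes higher. Cyc1 was at 1.17, 1.85, 1.65, 1.78 and 1.64 in cycling cells and at 0.943, 0.683, 0.683, 0.919 and 0.692 in the others (log2 difference 1.18, SE 0.10, adjusted p = 1.5e-10). Sdhd was at 0.667, 1.05, 1.05, 0.991 and 0.991 against 0.478, 0.383, 0.401, 0.552 and 0.488 (log2 difference 1.16, SE 0.09). For both genes the control library, with 49 cycling cells, was the lowest of the cycling values and still above the other T lymphocytes.

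The members lower in cycling cells were Cox7a2l, Uqcrh, Ndufa6 and Atp5md. Cox7a2l was at 2.11, 3.03, 3.17, 2.64 and 2.98 against 3.36, 4.18, 4.73, 4.29 and 5.11 (log2 difference -0.64, SE 0.09, adjusted p = 1.6e-06), and Uqcrh at 6.17, 6.67, 6.53, 6.50 and 6.77 (-0.32, adjusted p = 0.0045). Of the c subunit genes, Atp5g1 was higher by 0.88 on the log2 scale. Atp5g2, which after TMM was lower in PT than in T lymphocytes, was at 5.45, 7.47, 7.60, 7.90 and 7.32 and higher by 0.56. Of the 13 mitochondrially encoded subunits, by contrast, none was higher and 2, mt-Atp8 and mt-Nd6, were lower. Assembly factors were higher in 34 of 44 cases, tricarboxylic acid cycle genes in 12 of 13, and among the regulators Nrf1, Gabpa, Tfam, Pprc1, Polrmt, Tfb1m and Tfb2m were higher while Ppargc1a, Ppargc1b, Esrra and Esrrg were lower.

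Differences between T lymphocyte subsets were smaller, and these comparisons too were added after the levels had been seen. Against CD4 T cells, 44 of 81 members were higher in CD8 T cells and none lower (13.2% and 11.6% of all genes), with a median of 0.14. DESeq2 called 22. Cox5a was at 3.65, 3.28, 3.27, 4.89 and 3.95 in CD8 T cells and at 3.23, 2.68, 2.66, 3.91 and 3.01 in CD4 T cells (log2 difference 0.38, SE 0.04, adjusted p = 1.1e-07). In Treg cells 18 members were higher and 2 lower (16.3% and 13.6% of all genes). Uqcr11 was at 2.58, 2.24, 2.10, 2.92 and 2.55 in Treg against 2.47, 1.46, 1.22, 1.98 and 1.34 in CD4 T cells (0.55, SE 0.10, adjusted p = 0.00049), a difference that was small in the control library. Cox7a2l (-0.37) and Atp5h (-0.23) were the lower ones. NK cells had 0 members higher and 6 of 81 lower, against 9.75% and 8.89% of all genes, so the lower members were no more frequent than lower genes at large. Among them was Atp5c1, the gamma subunit, at 2.10, 1.82, 2.19, 2.46 and 2.36 against 2.72, 2.64, 2.88, 3.51 and 3.44 (-0.42, SE 0.08). These counts rested on single libraries: in CD8 T cells they were 21 without AKI 2, 18 without CKD 1 and 12 without CKD 2, in Treg cells 6 to 9 without any 1 AKI or CKD library and 32 without the control, and in NK cells 3 without AKI 1, 2 without CKD 1 and 1 without CKD 2.

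Macrophages marked by Ctsk, Mmp9 and Acp5 were compared with the other macrophages in AKI 2, CKD 1 and CKD 2, the libraries with at least 20 such cells (46, 296 and 117). An unnamed cluster of 973 cells, 802 in CKD 1 and 140 in CKD 2, was in neither group. Acp5 was among its leading genes, and its best marker score, 0.217, was for the Ctsk-high macrophages. It was shallow, with a median of 2907 UMIs per cell, so the values below do not cover all Acp5-high cells. In the Ctsk-high macrophages compared, the members summed to 282, 598 and 591 UMIs per 10000, against 187, 273 and 227 in the other macrophages. In both CKD libraries this lay above PT of the same library (568 and 490) and below PT of the control library (654). By the test, 6 of 82 members were higher and none lower (4.42% and 8.58% of all genes), 52 were higher at an unadjusted p under 0.05, and DESeq2 called 25. Ndufa4 was at 6.07, 14.8 and 12.9 against 2.02, 4.57 and 2.79 (log2 difference 1.70, SE 0.29, adjusted p = 0.022), and the catalytic subunit gene Atp5b at 9.92, 14.8 and 15.3 against 4.08, 5.76 and 4.69 (1.31). Cyc1 was at 1.71, 6.06 and 5.90 against 0.893, 1.403 and 1.00 (1.80, adjusted p = 0.061). The AKI 2 cells stood apart, with a median of 809 UMIs per cell, against 16878.5 and 35258 in CKD, and 24.1 UMIs per 10000 of proximal tubule transcripts, against 5.26 and 1.14. Without AKI 2 the test called 81 members, and without either CKD library 0. The shares of all genes above belong to the adjusted test with all libraries, and none is given for the other counts.

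**Figure D4:**
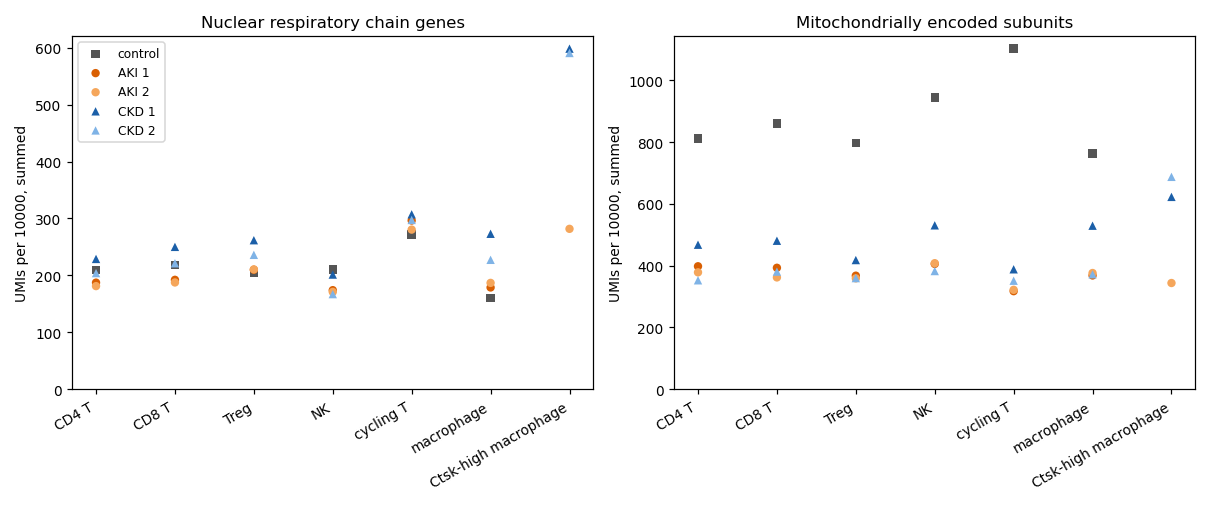
Summed level (UMIs per 10000, linear axes from 0) of the 87 members (left) and of the 13 mitochondrially encoded subunits (right) in lymphocytes and macrophages, with 1 point per library that held at least 20 cells. On the left cycling T cells lie between 272 and 307 and Ctsk-high macrophages of CKD near 600, and on the right the control library lies above the other libraries in every class where it is drawn.

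Whether the members changed from AKI to CKD was tested in 26 classes, with 2 libraries a group and no use of the control library. With 2 against 2 libraries an exact permutation test of a single value cannot go below 0.333, so the calls rest on the spread that edgeR shares across genes. In 22 classes no member passed the test. Few genes of any kind did so in most of these: in CD4 T cells 0.0166% of all genes were higher and 0.0249% lower, in CNT 0.0642% were higher, in cDC (conventional dendritic cells) 0.0316% were higher and 0.0842% lower, in unresolved IC 0.0928% were higher, and 0.0288%, 0.00912% and 0.0793% were lower in B cells, cycling T cells and other T cells. In the other 4 classes 1 to 4 members were higher in CKD, and in none of the 26 was a member lower. In PT 1 of 82 passed (1.17% of all genes were higher and 0.821% lower), so members were called about as often as genes at large. The members' median there was 0.19 against 0.03 over all genes. By complex the PT medians were 0.19, 0.05, 0.18, 0.20 and 0.17 for complexes I to V. Without CKD 1 they were 0.0622, -0.002, 0.0282, -0.025 and 0.0383, so the PT medians rest on that library.

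The PT gene that passed was Cox6b2, on chromosome 7 at 4754789 to 4756093 of GRCm39, on the minus strand, whose promoter is shown above. It was at 0.182 in control, 0.653 and 0.360 in AKI and 1.82 and 1.59 in CKD (log2 difference 1.81, SE 0.26, adjusted p = 0.0102, DESeq2 adjusted p = 9.1e-09). Both CKD libraries lay above both AKI libraries, and these above the control. The counts behind these levels were 102, 402, 243, 1956 and 544 UMIs. With doublets kept the adjusted p rose above 0.05, and without any 1 library it stayed at or below 0.0041. At a coarser clustering (Leiden resolution 1.0) the log2 difference was 2.945. Its paralog Cox6b1, at 11.2 and 9.97 in AKI and 12.1 and 10.4 in CKD, overlapped between the groups. Of the 2054 PT cells of CKD 1, 1006 were of the Mettl7b- and Spink1-led cluster, against 49 to 63 cells in each other library, and the part of this in the result was not tested.

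Cox6b2 was also the 1 member of 82 that passed in macrophages, where 0.932% of all genes were higher, again about as often as genes at large. It was at 0.0486, 0.0654, 0.0624, 0.296 and 0.293 (log2 difference 2.08, SE 0.16, adjusted p = 0.0094). Free RNA, taken in proportion to the proximal tubule transcripts, would give 0.167 of this in CKD 1 and 0.0193 in CKD 2. Leaving out single libraries moved its adjusted p up to 0.14. The shift in macrophages was not confined to Cox6b2: the members' median log2 difference was 0.32, against 0.003 over all genes. The class differed in make-up between libraries. From AKI 1 to CKD 2 it held 617, 928, 1312 and 356 cells. Of these, 198, 353, 207 and 121 were of a cluster led by Il1a and Apoc2. The part of this in the shift was not tested. Summed over members, macrophages took 179 and 187 UMIs per 10000 in AKI and 273 and 227 in CKD. Subtracting free RNA left 164 and 178 in AKI and 211 and 220 in CKD. The same subtraction left -41.1 in control macrophages, so these values are uncertain. In TAL, where Cox6b2 was at 0.191, 0.350, 0.410, 0.262 and 0.265, its log2 difference was -0.43 (adjusted p = 0.374).

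The remaining calls were in lymphocytes. In CD8 T cells 3 of 81 members were higher in CKD (1.64% of all genes): the complex I genes Ndufa8, at 0.967, 0.820, 0.885, 1.499 and 1.22 (0.66, SE 0.11, adjusted p = 0.035), and Ndufs8, an iron-sulfur subunit (0.58, adjusted p = 0.045), and Atp5c1, at 2.68, 2.60, 2.75, 3.82 and 3.75 (0.49, adjusted p = 0.044). For Atp5c1 the control library lay with AKI. In Treg cells 4 of 80 were higher (2.13% of all genes): Ndufc2, at 1.26, 1.24, 1.22, 2.05 and 1.71 (0.59, adjusted p = 0.017), Atp5g1 (0.59, adjusted p = 0.023), Atp5c1 (0.46, adjusted p = 0.038) and Cox7a2 (0.46, adjusted p = 0.047). Leaving out either AKI library removed all calls in CD8 T cells, Treg cells and macrophages, while leaving out CKD 2 raised their number. In Treg cells 1 member was called lower without a filter on low counts.

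In T lymphocytes as a whole 0 of 82 passed the edgeR test (0.0296% of all genes were higher and 0.0517% lower), 43 had an unadjusted p under 0.05, and DESeq2 called 15. Without CKD 1 the edgeR test called 27 and without CKD 2 it called 47, where the 1 CKD library left is assumed to vary like the AKI libraries. The members' median was 0.26, and 63 of 82 members had both CKD libraries above both AKI libraries, against 26% of all genes. In DCT 0 of 81 passed (0.837% of all genes), with 51 at an unadjusted p under 0.05 and none by DESeq2, while all 81 fitted differences were above 0 (median 0.54). Cox5a in DCT was at 13.3, 7.88, 7.76, 12.4 and 9.54 (log2 difference 0.60, adjusted p = 0.28). In IC 0 of 81 passed (0% of all genes), with 20 at an unadjusted p under 0.05 and a median of 0.40. Without CKD 2 the calls were 60 in DCT and 72 in IC, and without CKD 1 there was 1 in each. The counts at an unadjusted p, by DESeq2 and without 1 library are given without a share of all genes. They therefore do not set the members apart from other genes. In IC both CKD libraries lay above both AKI libraries for 74 members, against 13.9% of all genes, and in DCT for 68, against 15.7%. The IC class differed in make-up: unresolved cells were 110, 31, 293 and 30 of its 248, 141, 512 and 91 cells from AKI 1 to CKD 2. Within unresolved IC this pattern held for 20 of 80 members (19.1% of all genes), within type A for 52 of 81 (12.9%) and within pendrin-positive IC for 65 of 81 (11%). In PT it held for 26 of 82 (19.5%), in TAL for 17 of 81 (15.7%), in cycling T cells for 29 of 81 (18.4%) and in thin limb for 4 of 82 (12.4%).

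Other measures moved in CKD 1 beside these values. The proximal tubule transcripts were at 22.0 in DCT of CKD 1, against 4.91 and 4.41 in AKI and 1.87 in CKD 2, and at 33.3 in IC of CKD 1, against 17.2, 11.8 and 15.02. IC cells of CKD 1 had a median of 2584 UMIs, against 12700.5, 22889 and 24541 in the others. The DCT of CKD 2 held 25 cells. In T lymphocytes these transcripts were at 9.08, 9.71, 13.2 and 2.35 from AKI 1 to CKD 2. The part of these in the DCT and IC differences was not tested. Subtracting free RNA from T lymphocytes left 156 and 165 UMIs per 10000 of members in AKI and 183 and 197 in CKD, which did not overlap. The same subtraction left -7.41 in control T lymphocytes and -0.51 in B cells of CKD 1, so the subtracted values are uncertain.

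The change from AKI to CKD was compared between PT and T lymphocytes by an interaction term. No member of 82 differed (1 at an unadjusted p under 0.05), and the median difference of the changes was -0.09, against 0.10 over all genes. For Cox6b2 the difference was 0.91 (adjusted p = 0.48). In simulated counts this test recovered 4% of log2 changes of 1 and 60% of changes of 2, so smaller differences would mostly be missed.

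**Figure D5:**
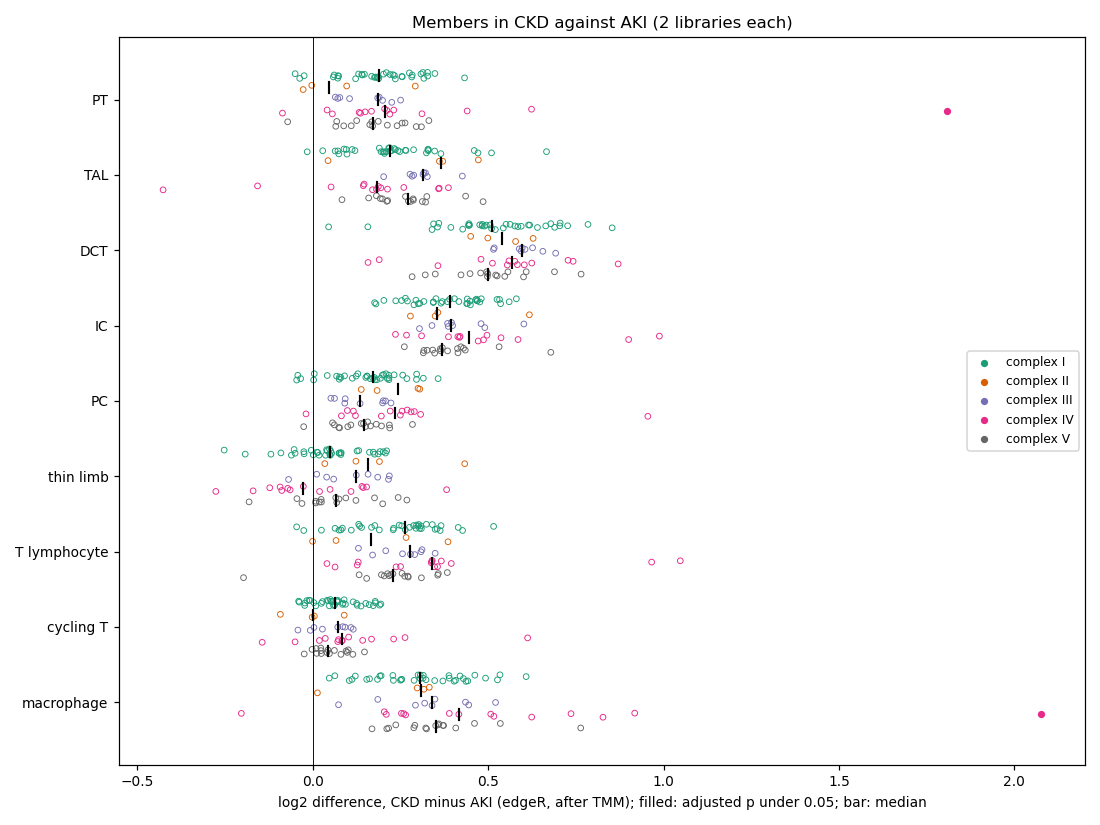
Log2 difference of each tested member between 2 CKD and 2 AKI libraries in 9 classes (edgeR, after TMM), coloured by complex, filled where the adjusted p was under 0.05, with a bar at each complex's median. Filled points are Cox6b2 in PT (1.81) and in macrophages (2.08), and all points of DCT and IC lie right of 0.

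The control library gives values with no replicate, so it was not tested. Its members lay above both AKI libraries for 73 of 82 in PT (39.4% of all genes), 78 of 81 in DCT (30.5%), 79 of 81 in IC (29%) and 73 of 81 in TAL (38.7%). In T lymphocytes this held for 62 of 82 (47.2%), in cycling T cells for 26 of 81 (41%), in thin limb for 24 of 82 (39.4%) and in macrophages for 16 of 82 (45%). In PT the complex V sum was 198 in control, 135 and 119 in AKI and 149 and 131 in CKD, and the complex I sum 188, 152, 135, 170 and 147. The control PT value depended on the limit set on mitochondrial UMIs: the sum of all members was 654 at 30%, 775 at 15% and 446 at 60%, where the AKI values were 434 and 393. The mitochondrially encoded subunits were at 823, 395, 371, 473 and 365 in T lymphocytes and at 1459, 1377, 1577, 1513 and 1679 in PT. Free RNA in the control library, estimated from the proximal tubule transcripts at 43.8% of T lymphocyte UMIs, was too large to subtract, since it left a value below 0.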

How the data were processed

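For each of 5 libraries made with a 3′ droplet kit, the authors deposited a matrix of UMI counts, not normalized, with 1 row per gene and 1 column per barcode. Per the labels and the study's methods these were made with Cell Ranger 7.2.0 on GRCm39. Other details stand in the file headers, version 5.0.0 for AKI and CKD and mm10 for a re-exported control matrix, so counts were matched by gene identifier. The study's own filters and its removal of free RNA are not part of these counts.

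Of 72896 barcodes, 60043 held 200 or more genes and no more than 30% mitochondrial UMIs, 6325 probable doublets were removed by a score of simulated doublets among a cell's neighbours (expected rate 0.8% per 1000 cells), and cells were clustered (3000 variable genes without the members, 40 principal components, Harmony by library, 15 neighbours, Leiden resolution 1.5; Python 3.11.15, scanpy 1.11.5, leidenalg 0.10.2). Of 51 clusters, 12 stayed unnamed (8646 cells) because no class reached a marker score of 0.3 or the named markers did not lead. UMIs were summed per library and class with at least 20 cells and tested with edgeR 4.0.16 (R 4.3.3; TMM, filterByExpr, quasi-likelihood F test, Benjamini-Hochberg over all genes tested, adjusted p under 0.05, 2-sided), with the library as a block where classes were compared. DESeq2 1.42.0 was an alternative. Intervals of levels (exact Poisson, 95%) cover counting error only.

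The members and the lists were chosen with earlier results of these data known. Genes named per comparison and complex were up to 3 with the largest log2 difference among those that passed, plus the isoform pairs, the c subunit genes and the ATP synthase inhibitor. Other genes named were chosen after their values had been seen. The tests were checked on simulated counts with known changes in 200 genes. For CKD against AKI, log2 changes of 1 were recovered in 41% of cases in PT, 51% in T lymphocytes and 38% in macrophages. Changes of 2 were recovered in 91%, 82% and 84%, with 7, 27 and 23 false calls. PT against T lymphocytes gave 45%, 92% and 6 false calls, and the interaction 4%, 60% and 4. The submitters' processing notes name STAR. Promoters came from a RefSeq table of GRCm38.p6, gene positions from an annotation of GRCm39.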

Additional observations from a re-analysis of the deposited data

Results flagged for a closer look

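For 2 genes that were called higher in CKD than in AKI in some class, both CKD libraries lay below both AKI libraries in another class. The difference between the classes was not tested. CKD lay below AKI in this way for 27.2% of all genes in TAL, 25.4% in thin limb and 14.9% in conventional dendritic cells. Such a pattern is thus common among genes at large. Cox6b2 had a log2 difference, CKD against AKI, of 1.81 in PT and 2.08 in macrophages, but of -0.43 in TAL (adjusted p = 0.374) and of -0.28 in thin limb (adjusted p = 0.809), by edgeR's quasi-likelihood test. Ndufs8, an iron-sulfur subunit of complex I, had 0.58 in CD8 T cells and -0.24 in conventional dendritic cells (adjusted p = 0.740).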

How the results depend on the processing

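With 2 libraries a group, the counts of members called between CKD and AKI rested on single libraries. Shares of all genes are not given for these alternatives. Leaving out 1 library in turn gave 0 to 45 in CD8 T cells (3 with all), 0 to 47 in T lymphocytes (0), 0 to 13 in TAL (0), 0 to 30 in Treg cells (4), 0 to 46 in macrophages (1) and 0 to 1 for the interaction of PT and T lymphocytes (0). The largest counts came without CKD 2, and for the interaction without CKD 1. DESeq2 called 20 in CD8 T cells, 15 in T lymphocytes, 1 in Treg cells and 9 in macrophages. Without a filter on low counts the calls were 37, 3, 10 and 11 in these classes and 1 in TAL, where the 10 in Treg cells were 9 higher and 1 lower. Without correction by library in the clustering they were 7 in CD8 T cells, 1 in Treg cells and 2 in macrophages. At Leiden resolution 1.0 Treg cells gave 13, and with up to 60% mitochondrial UMIs 2. With doublets kept PT gave 0.

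The labels number the libraries within groups but pair none across groups. Deviations of libraries with the same number correlated at 0.163 in PT, 0.202 in TAL, 0.250 in T lymphocytes and 0.0956 in macrophages. With the replicate number as a block, 0 members were called in CD8 T cells, 8 in Treg cells, 2 in macrophages and 1 in TAL.

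The PT medians of CKD against AKI also moved. At Leiden resolution 1.0 they were 0.4274 for complex I, 0.3259 for complex III and 0.4365 for complex IV. With 1 library left out they ranged from 0.0622 to 0.3202 for complex I, -0.002 to 0.0646 for complex II, 0.0282 to 0.2586 for complex III, -0.025 to 0.348 for complex IV and 0.0383 to 0.2833 for complex V, each lowest without CKD 1. For complex II the median was 0.0057 without a filter, 0.0782 at 15% and -0.0487 at 60% mitochondrial UMIs and -0.0271 with doublets kept. The cause was not tested.

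For the added comparisons, leaving out 1 library gave 4 to 12 calls in both directions for DCT against PT (12 with all), 22 to 32 for IC against PT (39), 12 to 51 for CD8 T cells, 6 to 32 for Treg cells and 1 to 8 for NK cells against CD4 T cells, and 0 to 81 for Ctsk-high macrophages. DESeq2 called 22 for CD8 T cells, 3 for NK cells and 25 for Ctsk-high macrophages. The counts against T lymphocytes kept within 1.5 times, with 75 to 78 members higher in PT.

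The summed level of control PT was 774.95 at 15% and 446.11 at 60% mitochondrial UMIs, 610.94 with doublets kept and 765.39 per 10000 nuclear UMIs. At 60% the PT means were 413.64 in AKI and 444.44 in CKD, and per nuclear UMIs 566.78 and 629.1. For control T lymphocytes it was 205.16 at 60%, 211.8 with the carried cells kept, 228.43 per nuclear UMIs and -7.41 after subtraction of free RNA, which is no usable value, as was -41.09 for control macrophages. The AKI mean of T lymphocytes was 196.76 per nuclear UMIs and 160.4 after subtraction, and their CKD mean 189.8 after subtraction. Each main result was set against each alternative: 288 such pairs stayed the same, 85 moved and 1 reversed, the last being the control T lymphocyte level below 0. Counts of calls were judged on their total within 1.5 times, without regard to direction, and medians and levels on whether they stayed within their spread. For the other results, among them CKD against AKI in DCT and IC, 1694 pairs stayed the same, 203 moved, 32 were weaker and 1 reversed.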
